A study of Homo sapiens with 46 samples.

Results

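The glycolytic enzymes described here are 10 genes, GPI, PFKP, ALDOA, TPI1, GAPDH, PGK1, PGAM1, ENO1, PKM and LDHA, chosen by gene name and not by their values. All 10 were found in the count table of each of the 4 cell types, among 10701 genes that the 4 tables share, and they were represented by 72 listed transcripts (hPSC 19, ectoderm 21, endoderm 19, mesoderm 13). The study measured total RNA of H1 cells, an established human embryonic stem cell line, and of cells differentiated from it, after the cells had been separated into cytoplasm and nucleus, and the nucleus into nucleoplasm, its soluble content, and chromatin. There were 46 libraries in 16 groups of 1 cell type and 1 fraction, of 3 libraries each apart from mesoderm nucleoplasm with 1.

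Undifferentiated cells (hPSC) were grown in mTeSR1 on Matrigel, and no genotype or transgene distinguishes them from the others. What differs is the culture medium and the compounds and factors added to it. Ectoderm cells received A83-01, PNU-74654 and Dorsomorphin in a medium with KOSR. Endoderm cells received WNT3A and Activin A in RPMI, and mesoderm cells received Activin A on the first day and then VEGF, BMP4 and bFGF. Lineage cells were collected after 5 days, and all groups share 1 parent line and lysis buffers that held α-amanitin, a blocker of RNA polymerase II. The series text speaks of actinomycin D, an inhibitor of transcription, but no sample label names it. No label says that replicate libraries came from separate cultures, so the p-values measure only the spread between these libraries, which may be technical. In bulk RNA, fewer cells of a type and less RNA per cell cannot be told apart.

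Glycolysis splits glucose into pyruvate in the cytosol and yields ATP and NADH. GPI, PFKP, ALDOA and TPI1 carry out upper steps, in which the sugar phosphate is rearranged, phosphorylated and cleaved. GAPDH, PGK1, PGAM1, ENO1 and PKM carry out the lower, energy-yielding steps, and LDHA reduces pyruvate to lactate, which regenerates NAD+. Pluripotent stem cells are known for a high rate of glycolysis with lactate release.

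In GENCODE 29 (GRCh38) the upper-step genes lie at chr19:34359480-34402413 (GPI), chr10:3066333-3137712 (PFKP), chr16:30064164-30070457 (ALDOA) and chr12:6867119-6870948 (TPI1). The lower-step genes lie at chr12:6533927-6538374 (GAPDH), chrX:77910739-78129296 (PGK1), chr10:97426160-97433441 (PGAM1), chr1:8861000-8879250 (ENO1) and chr15:72199029-72231822 (PKM), and LDHA lies at chr11:18394388-18408425. ENO1 and PKM are on the minus strand. Processed pseudogenes of these enzymes, which can share reads with them, were listed in the tables at no more than 1.04% of the level of their gene. Library totals ran from 4990408 to 21298678 counts, and no pair of replicate libraries was identical.

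The labels were checked against marker genes in CPM, counts scaled by the library total. Nuclear RNAs (MALAT1, NEAT1 and others, 4 or 5 of 5 listed in a table) summed to 1269 to 1843 CPM in the libraries labelled nucleus of mesoderm and to 615.8 to 761.6 CPM in its cytoplasm, but to only 117.9 to 494 CPM in ectoderm nucleus against 1409 to 2537 CPM in ectoderm cytoplasm. In endoderm the same sum was 122.6 to 496.2 CPM in nucleus and 514.2 to 711.8 CPM in cytoplasm, and in hPSC it was 850.8 to 1098 CPM and 886.7 to 902.6 CPM. Libraries labelled nucleus thus did not hold more of these RNAs than cytoplasm in 3 of the 4 cell types. In nucleoplasm and chromatin the sum was above that of cytoplasm in hPSC, endoderm and mesoderm. Mitochondrial RNAs (4 of 4 listed) summed to 33095 to 75234 CPM in the nucleus libraries of hPSC, ectoderm and endoderm, and to 1401 to 6603 CPM in their cytoplasm. The order was the opposite in mesoderm, with 4550 to 5378 CPM in nucleus and 24399 to 27712 CPM in cytoplasm.

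Cytoplasmic RNAs (RPLP0, RPS3, EEF1A1 and ACTB, 4 of 4 listed) summed to 31978 to 43359 CPM in the cytoplasm of the 4 cell types. They summed to 9316 to 15867 CPM in the nucleus libraries of hPSC, endoderm and mesoderm, but to 34847 to 44863 CPM in ectoderm nucleus. What part these sums have in any contrast of cytoplasm with nucleus was not tested. POU5F1, a pluripotency factor, averaged 2954 CPM in hPSC cytoplasm, 6.215 CPM in ectoderm, 1765 CPM in endoderm and 891.7 CPM in mesoderm. The hPSC markers together, POU5F1 among them, summed to 6288 to 6843 CPM in hPSC cytoplasm (6 of 6 listed). They summed to 1705 to 2133 CPM in ectoderm (5 of 6) and to 4627 to 5230 CPM in endoderm (6 of 6). In mesoderm cytoplasm they summed to 2652 to 2787 CPM (4 of 6). PAX6 averaged 203.3 CPM in ectoderm and SOX17 157.6 CPM in endoderm. Endoderm cytoplasm also held genes of the mesoderm marker list (7 of 8 listed, summed to 274.9 to 343.1 CPM, GATA4 and HAND1 foremost). That sum was near its endoderm markers (6 of 6, 297.8 to 423.4 CPM) and above the 127.5 to 136.4 CPM in the cytoplasm of cells labelled mesoderm. In endoderm nucleus the mesoderm markers summed to 457.9 to 511.3 CPM, with HAND1 at only 27.57 to 35.12 CPM, and the endoderm markers to 187 to 231.6 CPM. The mesoderm markers also summed to 390.6 to 463.3 CPM in hPSC nucleus and to 21.25 to 30.52 CPM in its cytoplasm (2 of 8 listed). In the nucleus of cells labelled mesoderm they summed to 27.08 to 34.94 CPM. A sum can rest on few genes of its list, so it does not by itself tell which cell type is present. The part of these markers in the lineage comparisons was not tested. Cells labelled mesoderm had HAND1 at 131.9 CPM but TBXT at 0.1317 CPM, and their table listed 3 of 8 mesoderm markers, so "mesoderm" below is the label of these cells.

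Summed over the 10 enzymes, the share of all counts was highest in hPSC cytoplasm, at 1.782% ± 0.046 (SD, n = 3). It was 1.386% ± 0.164 in endoderm cytoplasm, 0.881% ± 0.011 in ectoderm cytoplasm and 0.675% ± 0.032 in mesoderm cytoplasm, and these 4 groups did not overlap. In chromatin the summed share was 1.025% ± 0.045 for hPSC, 0.350% ± 0.047 for ectoderm, 0.253% ± 0.013 for endoderm and 0.322% ± 0.142 for mesoderm. The mesoderm libraries there overlapped both other lineages, endoderm lay below ectoderm, and all lineage libraries lay below hPSC.

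**Figure D1:**
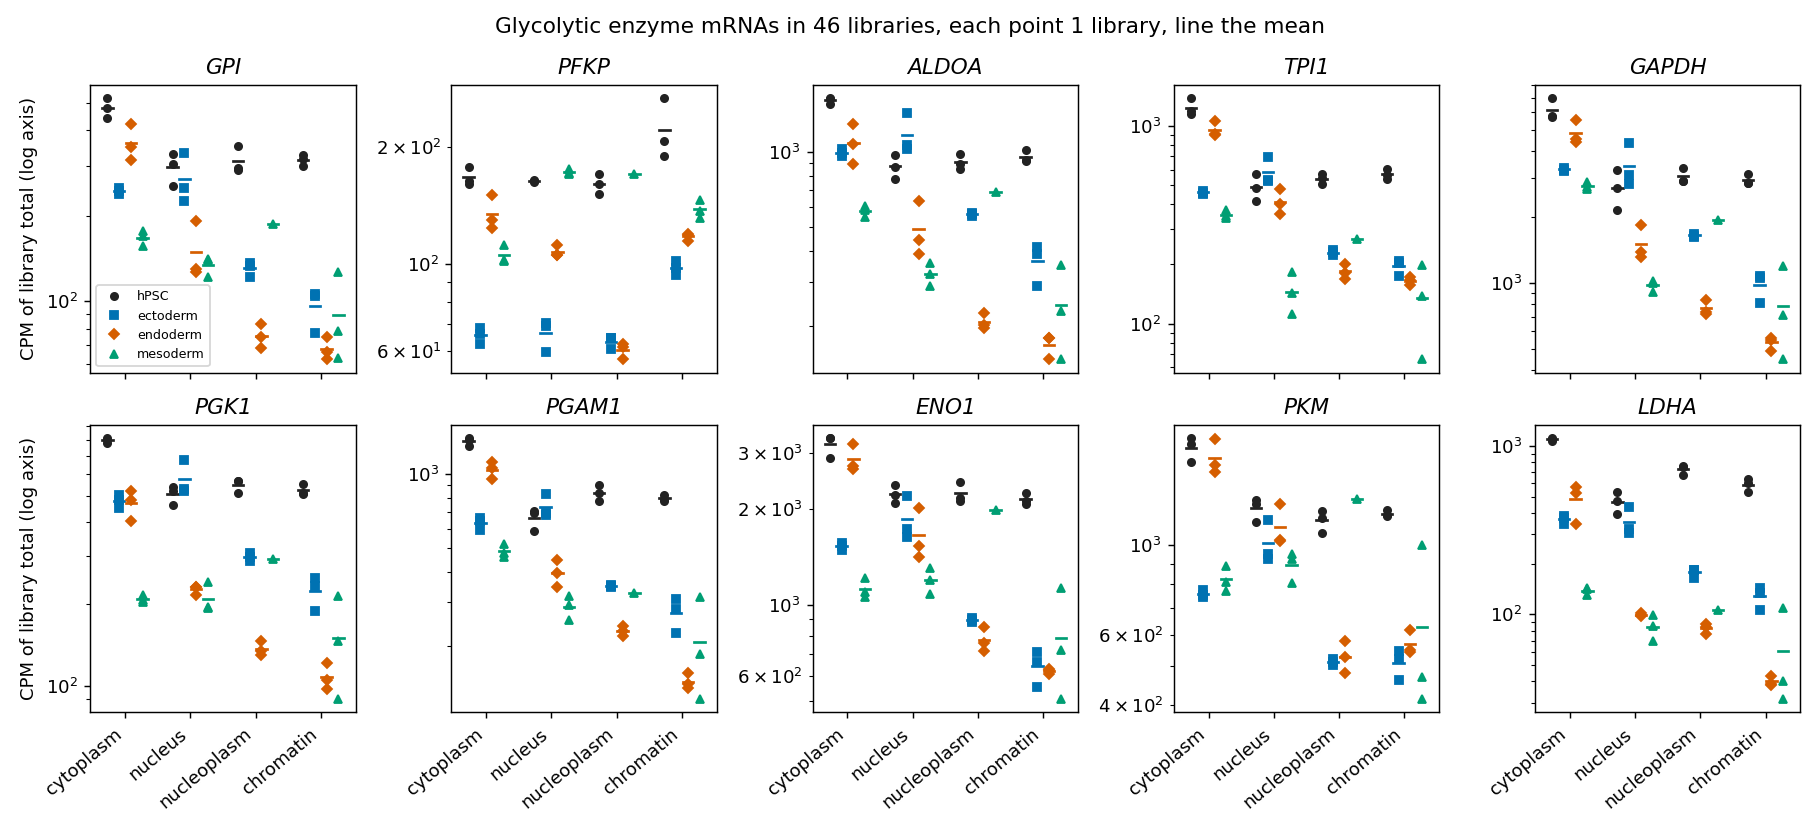
Level of each enzyme in every library, in CPM on a log axis, by cell type and fraction. Within most panels the highest points are those of hPSC cytoplasm, such as LDHA at 1074.8 to 1115.1 CPM, while for PFKP the hPSC points lie close together in cytoplasm and nucleus.

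Levels of different genes were ordered only in TPM, the authors' length-corrected share of a library. GAPDH, which oxidises glyceraldehyde-3-phosphate, ranked 1 and ENO1, which makes phosphoenolpyruvate, ranked 2 of the 10 in all 16 groups. ALDOA held rank 3 to 5, PKM 3 to 6, TPI1 and PGAM1 4 to 6, LDHA 7 to 9, PGK1 7 or 8, PFKP 7 to 10 and GPI 9 or 10. In hPSC cytoplasm the means were 5955.7 TPM for GAPDH, 2096.2 for ENO1, 1317.3 for ALDOA, 1039.5 for TPI1, 875.7 for PGAM1, 851.0 for PKM, 636.0 for LDHA, 171.5 for PGK1, 122.5 for GPI and 72.5 for PFKP. PGAM1 and PKM, next to each other in that order, differed by less than their SDs of 102.0 and 166.0 TPM. In mesoderm cytoplasm LDHA held rank 8 with 105.3 ± 5.37 TPM (SD, n = 3), level with PGK1 at 105.4 ± 8.51 TPM. Between hPSC and mesoderm cytoplasm PGK1 went from 799.3 to 209.1 CPM but from 171.5 to 105.4 TPM. Each cell type has its own assembly, so transcript lengths can differ, and the part of this in the ranks was not tested.

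LDHA, GAPDH, PGK1 and ALDOA are classical targets of the hypoxia-inducible factors, which bind the core ACGTG, and their RefSeq promoter stretches (GRCh38.p14, plus strand) are shown because these enzymes are compared between lineages below. Capitals mark ACGTG or its reverse complement CACGT, which together spell CACGTG where they overlap. The LDHA stretch is chr11:18394366-18394395, that of GAPDH is chr12:6535171-6535200, that of PGK1 is chrX:78104034-78104063 and that of ALDOA is chr16:30064373-30064402.
LDHA: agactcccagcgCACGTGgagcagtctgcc
GAPDH: gctctgcggggtCACGTGtcgcagaggagc
PGK1: gcggcgtgccggACGTGacaaacggaagcc
ALDOA: tggcagggaggcCACGTGatccgagtcccc
In the 250 bases before the start, matches to ACGTG counted on both strands numbered 5 for this LDHA start and 2 each for GAPDH, PGK1 and ALDOA. A CACGTG holds a match on each strand and so counts as 2 matches at 1 site. Where a gene had more than 1 RefSeq start, the start with the most matches was taken. With GCGTG searched as well, 12 of the 17 windows of the enzymes held a match, against 43.2% of 35116 windows of all genes. Some of these windows overlap, such as 2 of ALDOA. By gene, 8 of the 10 enzymes (all but PGAM1 and PKM) had a match in 1 or more windows. The like share over all genes was not counted, and a gene with more windows has more chances of a match. A match describes these letters only.

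Each lineage had lower cytoplasmic levels of the glycolytic enzymes than hPSC, and LDHA had the largest log2 fall of the 10 in each. LDHA was at 1102, 1074.8 and 1115.1 CPM in hPSC cytoplasm. It was at 384.0, 344.2 and 371.5 CPM in ectoderm, at 343.0, 528.5 and 570.3 CPM in endoderm and at 142.2, 129.8 and 143.5 CPM in mesoderm. No lineage library reached the hPSC range, and the mesoderm libraries lay below all others. The log2 change against hPSC was -1.64 ± 0.16 (SE) in ectoderm (adjusted p = 1.65e-07), -1.41 ± 0.15 in endoderm (adjusted p = 2.34e-06) and -3.03 ± 0.16 in mesoderm (adjusted p = 7.42e-10), by the edgeR quasi-likelihood test with Benjamini-Hochberg adjustment over all genes. These 3 comparisons share the hPSC libraries.

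All 10 enzymes passed the test downward in each lineage's cytoplasm. The same call was made for 37.0% of 10672 genes in ectoderm, 32.2% in endoderm and 33.1% in mesoderm. Among the enzymes, the median log2 change was -1.14 for ectoderm, -0.60 for endoderm and -1.54 for mesoderm, beside 0.04, -0.05 and 0.01 for all genes.

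Of the upper steps, PFKP, the phosphofructokinase of platelet type and the committing step, was at 161.2, 164.3 and 178.3 CPM in hPSC cytoplasm and at 66.25, 62.48 and 68.47 CPM in ectoderm (-1.41 ± 0.10, adjusted p = 4.46e-09). In endoderm it had 123.8 to 151.1 CPM (-0.54 ± 0.09) and in mesoderm 102.2 to 111.9 CPM (-0.72 ± 0.09). TPI1, which interconverts the triose phosphates, was at 1380.5, 1185.0 and 1141.0 CPM in hPSC and at 341.1, 350.5 and 372.7 CPM in mesoderm (-1.84 ± 0.13, adjusted p = 8.53e-09). GPI, the glucose-6-phosphate isomerase, and ALDOA, the aldolase that cleaves fructose bisphosphate, had log2 changes of -1.03 and -0.75 in ectoderm, -0.63 and -0.78 in endoderm and -1.57 and -1.52 in mesoderm, all called. The groups of these 4 genes did not overlap those of hPSC in any lineage. The share of all genes without such overlap was not counted, here or in the comparisons below.

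Of the lower steps, GAPDH was at 6973.6, 5706.5 and 5755.2 CPM in hPSC cytoplasm, at 3245.9 to 3347.8 CPM in ectoderm (-0.95 ± 0.14), at 4410.4 to 5538.4 CPM in endoderm (-0.57 ± 0.14) and at 2679.2 to 2883.7 CPM in mesoderm (-1.20 ± 0.15). PGK1, the first ATP-forming kinase, was at 782.0 to 814.5 CPM in hPSC and at 204.1 to 216.3 CPM in mesoderm (-1.98 ± 0.11, adjusted p = 1.14e-09), the largest fall there after LDHA. PGAM1, the phosphoglycerate mutase, had changes of -1.16, -0.60 and -1.53 in ectoderm, endoderm and mesoderm. PKM, the pyruvate kinase, and ENO1 changed by -1.26 and -1.11 in ectoderm and by -1.13 and -1.55 in mesoderm.

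In endoderm, PKM and ENO1 stood closest to hPSC. PKM was at 1518.2, 1582.5 and 1838.8 CPM in endoderm cytoplasm against 1614.9, 1783.7 and 1850.0 CPM in hPSC, and these groups overlapped (-0.31 ± 0.12, adjusted p = 0.0407). ENO1 was at 2659.4, 2716.0 and 3189.9 CPM against 2888.0, 3323.2 and 3334.6 CPM (-0.38 ± 0.12, adjusted p = 0.0172). The fall of PKM was not called in 4 of the 6 fits that left out 1 library, and that of ENO1 in 3. With library totals in place of TMM, 67.0% of all genes called in endoderm cytoplasm were higher than in hPSC against 46% with TMM, and with TPM 77.4%, and 8 and 3 of the 10 enzymes were then called lower. With TPM the share of higher calls in mesoderm was 63.8% against 51.4%, and all 10 enzymes were still called lower. Here and for other settings below, these percentages are of the genes called, not of all genes tested. Counts of enzymes under other settings have no share of all genes beside them.

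**Figure D2:**
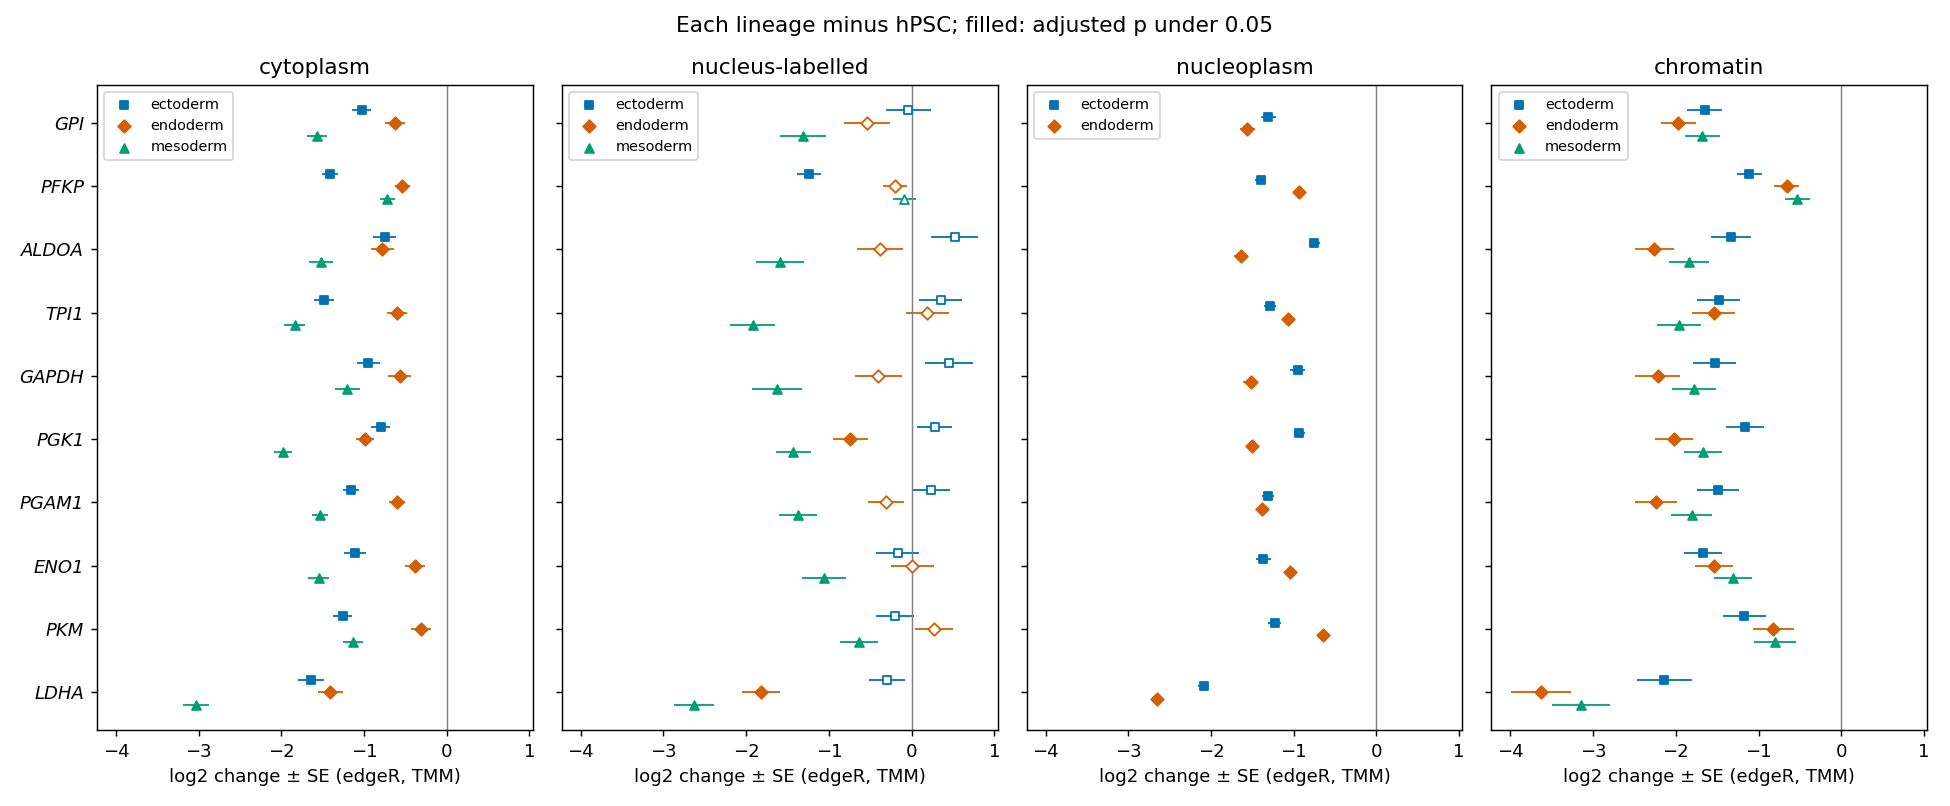
Change of each enzyme against hPSC in each fraction, as log2 (TMM-scaled) with SE bars, filled where the adjusted p was under 0.05. All points lie below 0 in cytoplasm and chromatin, with LDHA lowest (-3.03 in mesoderm cytoplasm, -3.63 in endoderm chromatin), while several nucleus points lie near 0.

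In the nucleus libraries, the lineages differed from one another in how many enzymes were called. In ectoderm only PFKP passed (-1.24 ± 0.14, adjusted p = 5.23e-06), a downward call made for 28.9% of 10651 genes, and 8 of the other 9 had overlapping groups. ALDOA was higher in each ectoderm library (1021.6 to 1422.6 CPM against 774.4 to 970.0 CPM) without passing (0.52 ± 0.28, adjusted p = 0.131). In endoderm LDHA (-1.82 ± 0.23) and PGK1 (-0.74 ± 0.21) fell, against 28.3% of genes. Endoderm nucleus replicate 1 stood above the other 2 libraries for several enzymes, such as ALDOA at 631.1 against 440.1 and 389.0 CPM, and without it 7 enzymes were called lower. In mesoderm all enzymes but PFKP fell, 9 of 10 against 27.9% of genes, with LDHA at -2.63 ± 0.24 and TPI1 at -1.92 ± 0.27. The call of PKM (-0.63, adjusted p = 0.0345) was lost whichever of the 6 libraries was left out, which leaves 8, and under the replicate block (adjusted p = 0.0593). PFKP was at 170.9 to 175.7 CPM in mesoderm nucleus and at 162.6 to 164.8 CPM in hPSC (-0.09 ± 0.14, adjusted p = 0.628).

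Other scalings moved the nuclear comparisons. In endoderm nucleus 50.4% of the genes called were higher with TMM, 30.1% with library totals and 31.2% with TPM, and 8 enzymes were called lower under either alternative. In mesoderm nucleus the share was 48.3% with TMM and 88.4% with TPM, where 5 enzymes were called lower, PFKP and PGK1 were called higher (0.69 and 0.53) and PKM was at 0.27. In ectoderm nucleus it was 49.9% with TMM and 29.4% with TPM, with 4 enzymes called lower. PGK1 averaged 504.7 CPM in hPSC nucleus and 209.3 CPM in mesoderm nucleus, but 149.4 and 217.2 TPM. TPM also divides by transcript length, which can differ between the assemblies of the cell types. The part of length in the TPM comparisons of cell types was not tested.

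In nucleoplasm and chromatin, too, each enzyme was lower in the lineages tested. All 10 were called lower in nucleoplasm in ectoderm (39.5% of 10679 genes, median -1.30) and endoderm (40.2%, median -1.45). Mesoderm nucleoplasm, with 1 library, was not tested. There PFKP (170.3 CPM) and PKM (1303.0 CPM) lay above the hPSC means of 160.9 and 1154.3 CPM, and the other enzymes lay below theirs. All 10 were also called lower in chromatin in ectoderm (30.1% of 10672 genes, median -1.49), endoderm (30.8%, median -2.0) and mesoderm (25.8%, median -1.73). LDHA was at 599.7, 636.9 and 529.8 CPM in hPSC chromatin, at 133.9, 106.2 and 143.9 CPM in ectoderm, at 42.95, 38.23 and 38.89 CPM in endoderm and at 40.48, 31.36 and 109.7 CPM in mesoderm. Its changes there were -2.14 ± 0.33, -3.63 ± 0.36 and -3.15 ± 0.35, and in nucleoplasm -2.09 ± 0.07 in ectoderm and -2.65 ± 0.08 in endoderm. The smallest changes in nucleoplasm were those of ALDOA in ectoderm (-0.75 ± 0.07) and PKM in endoderm (-0.64 ± 0.08). Mesoderm chromatin replicate 3 stood above the other 2 libraries for all 10 enzymes, and its mitochondrial RNAs summed to 22900 CPM against 2672 and 3999 CPM. Without that library all 10 enzymes were still called lower.

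PFKP had the smallest log2 change on chromatin in each lineage, followed by PKM in endoderm and mesoderm. PKM was at 1182.7 to 1224.5 CPM in hPSC chromatin and at 462.5 to 546.2, 544.5 to 616.0 and 414.2 to 999.1 CPM in the 3 lineages (-1.17, -0.82 and -0.80), and the mesoderm call was lost without mesoderm chromatin replicate 1. PFKP was at 190.5 to 267.9 CPM in hPSC and at 93.72 to 101.7, 115.0 to 119.7 and 131.7 to 146.1 CPM in the lineages (-1.11, -0.66 and -0.53). Transcripts listed in hPSC, ectoderm, endoderm and mesoderm numbered 2, 4, 1 and 1 for PFKP. For PKM they numbered 1, 3, 5 and 1. In endoderm, PKM-214 and PKM-212, described below and not listed in hPSC, together held 28.867% of PKM counts on chromatin. The part of these unlike lists in the changes of both genes was not tested. The share of genes called higher against hPSC moved in endoderm from 47.9% to 27.4% with library totals and 37.3% with TPM in nucleoplasm, and from 50.2% to 37.9% and 36.4% in chromatin. In mesoderm chromatin it moved from 52.6% to 65.8% with TPM, with 7 enzymes called lower.

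Within hPSC, the enzymes were more abundant in cytoplasm than in the libraries labelled nucleus, with TPI1, LDHA and GAPDH ahead. TPI1 was at 1380.5, 1185.0 and 1141.0 CPM in cytoplasm and at 570.4, 416.2 and 484.5 CPM in nucleus (log2 change 1.27 ± 0.13, adjusted p = 2.37e-06). LDHA was at 532.9, 393.5 and 473.3 CPM in nucleus (1.17 ± 0.12, adjusted p = 2.64e-06), and GAPDH at 3267.7, 2148.9 and 2702.9 CPM (1.12 ± 0.16, adjusted p = 3.42e-05). The fraction groups of all 3 genes did not overlap, and how common this was among all genes was not counted. Of the 10 enzymes, 9 passed and all 9 were higher in cytoplasm, a direction called for 35.0% of 14150 genes. Their median was 0.72 and that of all genes 0.10. The other changes were 0.97 for PGAM1, 0.82 for ALDOA, 0.62 for GPI, 0.60 for PGK1, 0.45 for ENO1 and 0.43 for PKM. PFKP did not pass, with 161.2 to 178.3 CPM in cytoplasm and 162.6 to 164.8 CPM in nucleus (-0.04 ± 0.12, adjusted p = 0.815). With TPM, 33.9% of the genes called were higher in cytoplasm against 53.6% with TMM, and 5 enzymes were called higher and 1 lower.

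**Figure D3:**
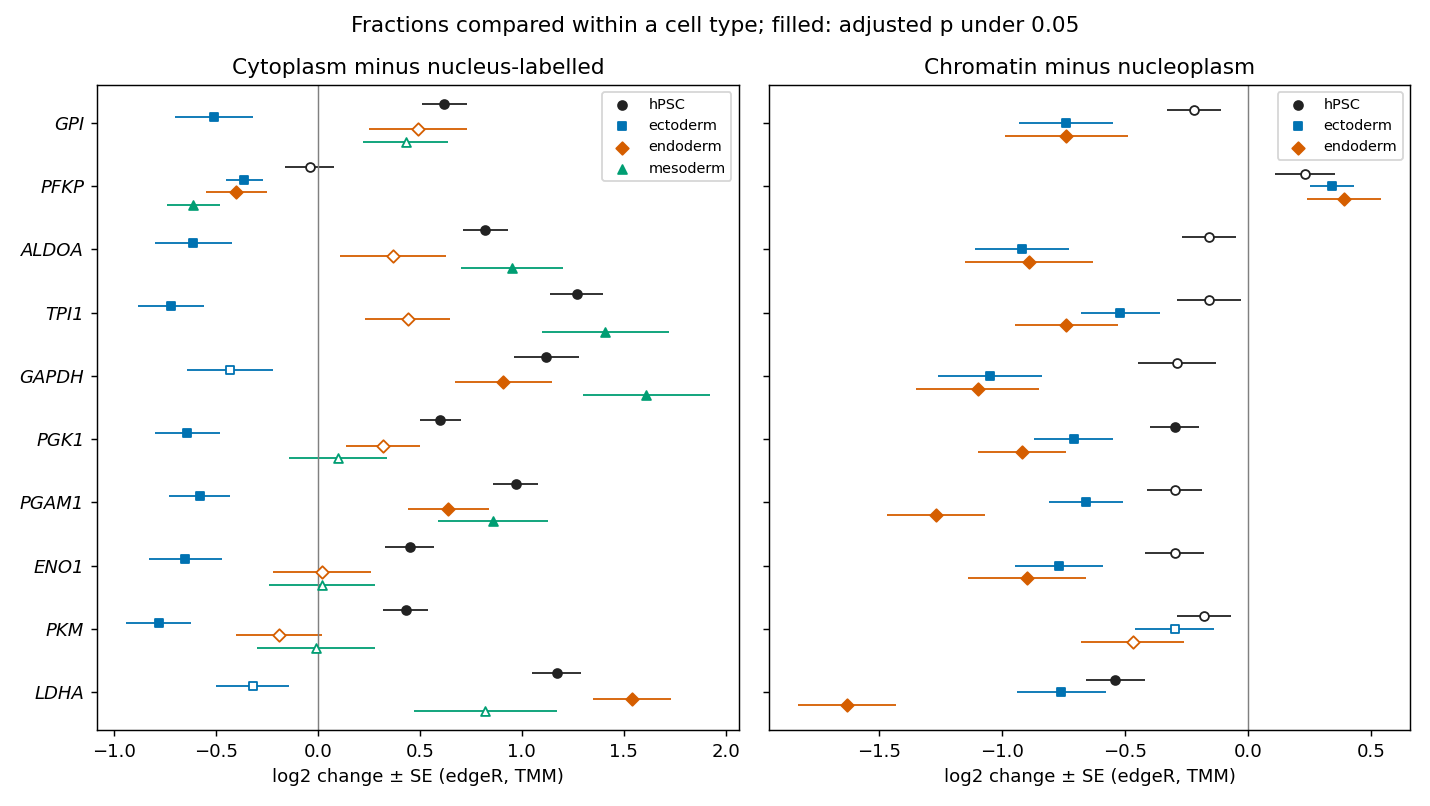
Change of each enzyme between fractions within a cell type, as log2 (TMM-scaled) with SE bars, filled where the adjusted p was under 0.05. In hPSC 9 enzymes lie above 0 for cytoplasm against nucleus, in ectoderm all 10 lie below 0, and for chromatin against nucleoplasm PFKP lies apart, above 0 in each cell type tested.

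Ectoderm showed the opposite order. PKM was at 744.2, 773.5 and 751.5 CPM in ectoderm cytoplasm and at 926.1, 1156.8 and 952.6 CPM in nucleus, with no overlap (-0.78 ± 0.16, adjusted p = 0.00112). Changes of TPI1 (-0.72), ENO1 (-0.65), PGK1 (-0.64), ALDOA (-0.61), PGAM1 (-0.58), GPI (-0.51) and PFKP (-0.36) also passed, so that 8 of 10 were lower in cytoplasm against 26.5% of 15979 genes. GAPDH (-0.43 ± 0.21, adjusted p = 0.097) and LDHA (-0.32 ± 0.18, adjusted p = 0.142) did not pass. The median was -0.60, and that of all genes 0.01. In CPM of the library total, GAPDH was at 3245.9 to 3347.8 in cytoplasm and at 2827.5, 4351.6 and 3099.9 in nucleus, where replicate 2 was the highest for 9 of the 10 enzymes. As given above, the nucleus libraries of ectoderm held less of the nuclear RNAs than cytoplasm and a like amount of the cytoplasmic RNAs, and the part of this in the order was not tested. The number called ran from 4, without ectoderm cytoplasm replicate 1, to 10, without ectoderm nucleus replicate 1. Without nucleus replicate 2, GPI (-0.14, adjusted p = 0.364) and ALDOA (-0.24, adjusted p = 0.125) lost their calls. With library totals 76.4% of the genes called were higher against 50.7%, and 2 enzymes were called lower. With TPM it was 75.7%, with 1 enzyme called lower.

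In endoderm LDHA, GAPDH and PGAM1 rose in cytoplasm and PFKP fell. LDHA was at 343.0, 528.5 and 570.3 CPM in cytoplasm and at 98.77, 102.4 and 97.37 CPM in nucleus (1.54 ± 0.19, adjusted p = 5.23e-06). GAPDH had 4410.4 to 5538.4 CPM against 1309.4 to 1833.0 CPM (0.91 ± 0.24), and PGAM1 957.6 to 1119.2 CPM against 348.5 to 445.7 CPM (0.64 ± 0.20). These 3 of 10 higher calls compare with 34.4% of 12800 genes, and the 1 lower call, PFKP (-0.40 ± 0.15, adjusted p = 0.0242), with 35.5%. PKM (-0.19), ENO1 (0.02), PGK1 (0.32), ALDOA (0.37), TPI1 (0.44) and GPI (0.49) did not pass. The level and the tested change went apart for PFKP: it had 123.8 to 151.1 CPM in cytoplasm and 105.4 to 112.0 CPM in nucleus, since the test scales by TMM and not by the library total.

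Scaling and 1 library set how many enzymes were called in endoderm. With library totals all 10 were called higher in cytoplasm, with PFKP at 0.33, and the share of called genes that were higher was 71.4% against 49.2% with TMM. With TPM that share was 62.8% and 7 enzymes were called higher. Without endoderm nucleus replicate 1, 8 enzymes were called higher, among them TPI1 (0.78), GPI (0.95) and ALDOA (0.85). The call of PFKP was lost without that library, and also without cytoplasm replicate 1 or 2.

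In mesoderm GAPDH and TPI1 had the largest cytoplasmic excess. GAPDH was at 2883.7, 2679.2 and 2728.7 CPM in cytoplasm and at 905.2, 1023.3 and 991.6 CPM in nucleus (1.61 ± 0.31, adjusted p = 0.00082). TPI1 was at 341.1 to 372.7 CPM and at 111.3 to 181.8 CPM (1.41 ± 0.31, adjusted p = 0.0022). ALDOA (0.95 ± 0.25) and PGAM1 (0.86 ± 0.27) also passed, the last not without mesoderm nucleus replicate 1. That is 4 of 10 higher, against 31.8% of 14533 genes, and the 1 lower call compares with 31.5%. PFKP, the 1 enzyme called lower, was at 111.9, 102.3 and 102.2 CPM in cytoplasm and at 170.9, 171.3 and 175.7 CPM in nucleus (-0.61 ± 0.13, adjusted p = 0.00139). LDHA (0.82 ± 0.35, adjusted p = 0.0612) and GPI (0.43 ± 0.21, adjusted p = 0.0981) did not pass, though their groups did not overlap. PKM (-0.01), ENO1 (0.02) and PGK1 (0.10) had overlapping groups. With TPM the direction turned: 10.6% of the genes called were higher in cytoplasm against 50.3% with TMM, and 5 enzymes were called lower (PFKP, PKM, ENO1, PGK1 and GPI). The mesoderm fractions are also those whose mitochondrial RNAs ran opposite to the other cell types.

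The difference between cell types in the contrast of cytoplasm with nucleus was tested directly by an interaction term. In ectoderm 9 of 10 enzymes had a lower contrast than in hPSC, against 26.1% of 10681 genes, from -0.96 for ENO1 to -1.85 ± 0.32 for TPI1 (adjusted p = 8.13e-05). PFKP was the exception (-0.19 ± 0.18, adjusted p = 0.385). Without ectoderm nucleus replicate 2, ENO1 (-0.61) and GPI (-0.61) lost their calls. With TPM 82.2% of the genes called were higher against 50.2%, and 5 enzymes were called lower. In endoderm only TPI1 had a lower contrast (-0.80 ± 0.31, adjusted p = 0.0488), against 18.6% of genes, and its call was lost in 7 of the 12 fits that left out 1 library and under the replicate block (adjusted p = 0.0561). With library totals or TPM, 2 enzymes were called in the opposite direction, and 92.1% or 94.6% of the genes called were higher against 51.9%. In mesoderm only PFKP had a lower contrast (-0.50 ± 0.18, adjusted p = 0.041), against 6.79% of genes, and its call was lost in 11 of 12 such fits and under the block (adjusted p = 0.0728). There the share of higher calls was 73.2% with TMM, 48.7% with library totals, 65.1% with DESeq2 and 5.26% with TPM, and 4 enzymes were called lower with library totals and 8 with TPM.

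Between the nuclear fractions, most enzymes were lower on chromatin than in nucleoplasm in ectoderm and endoderm, and PFKP was higher. PFKP was at 101.7, 93.72 and 97.89 CPM on ectoderm chromatin and at 60.63, 64.55 and 64.68 CPM in nucleoplasm (0.34 ± 0.09, adjusted p = 0.00653). In endoderm it was at 119.7, 119.1 and 115.0 CPM and at 62.27, 61.33 and 56.9 CPM (0.39 ± 0.15, adjusted p = 0.0377), a call lost in each of the 6 fits without 1 library. The chromatin and nucleoplasm values of PFKP did not overlap in hPSC either (190.5 to 267.9 and 151.3 to 170.4 CPM), without passing (0.23 ± 0.12, adjusted p = 0.175). LDHA went the other way: in endoderm it was at 42.95, 38.23 and 38.89 CPM on chromatin and at 83.89, 87.69 and 76.65 CPM in nucleoplasm (-1.63 ± 0.20, adjusted p = 7.41e-06).

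In ectoderm 8 of 10 enzymes were lower on chromatin, against 25.6% of genes, and PFKP was the 1 higher, against 18.5%. In endoderm 8 were lower, against 30.6%, and PFKP again was the 1 higher, against 22.9%. The largest falls were those of GAPDH (-1.05 ± 0.21) and ALDOA (-0.92 ± 0.19) in ectoderm and, after LDHA, of PGAM1 (-1.27 ± 0.20) and GAPDH (-1.10 ± 0.25) in endoderm. PKM did not pass in any cell type (-0.18, -0.30 and -0.47 in hPSC, ectoderm and endoderm). In hPSC 2 of 10 were lower, against 13.3%: LDHA (-0.54 ± 0.12, adjusted p = 0.00607) and PGK1 (-0.30 ± 0.10, adjusted p = 0.0458), the latter lost in each fit without 1 library. The ectoderm fall of TPI1 was lost in 5 of 6 such fits.

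The direction on chromatin depended on the scaling in hPSC and ectoderm. With TPM 96.7% of the genes called in hPSC were higher on chromatin against 56.2%, the median of the enzymes was 0.33 against -0.25, and 4 were called higher (PFKP, TPI1, ALDOA and PKM). With library totals the share was 86.5% and 1 enzyme was called, upward. In ectoderm the share was 41.9% with TMM, 71.0% with library totals and 96.5% with TPM, where the enzymes' median was 0.03 and 2 were called higher (PFKP and PKM). In endoderm it was 42.8%, 73.8% and 76.0%. The enzymes' median there moved from -0.90 with TMM to -0.32 and -0.26, and the 8 called lower became 4 with library totals and 2 with TPM (LDHA -0.99 and PGAM1 -0.62), with PFKP called higher under each. Mesoderm nucleoplasm had 1 library and no test, with PFKP at 170.3 CPM and LDHA at 106.4 CPM.

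The transcripts of PKM differ in which of a pair of mutually exclusive exons they hold, and the exons are shown because they tell the M2 form, typical of proliferating cells, from the M1 form of muscle and brain. The M2 exon (transcript PKM-202, chr15:72202454-72202620) and the M1 exon (PKM-201, chr15:72203022-72203188) lie on the minus strand of GRCh38 and are given 5′ to 3′ from GENCODE 29. Capitals mark the 62 of 167 positions at which they differ, an identity of 62.9%.
PKM-202 exon: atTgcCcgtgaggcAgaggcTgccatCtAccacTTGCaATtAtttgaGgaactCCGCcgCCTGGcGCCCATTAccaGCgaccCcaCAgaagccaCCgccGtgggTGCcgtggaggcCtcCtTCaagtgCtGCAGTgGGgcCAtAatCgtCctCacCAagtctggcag
PKM-201 exon: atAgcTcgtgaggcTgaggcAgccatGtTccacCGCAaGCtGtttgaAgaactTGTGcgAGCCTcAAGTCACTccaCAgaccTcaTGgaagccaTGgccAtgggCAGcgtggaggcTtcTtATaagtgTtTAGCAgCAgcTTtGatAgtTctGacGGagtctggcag
PKM-202, with the M2 exon, was listed in all 4 tables and was the most abundant PKM transcript in each. PKM-201 was listed in none, so reads of an M1 form had no full transcript of their own to be counted on, and the use of the M1 exon was not analysed here.

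Transcripts that GENCODE 29 classes as retained intron were listed for ENO1 in hPSC (ENO1-203 and ENO1-210), ectoderm (both) and endoderm (ENO1-203), for PKM in ectoderm (PKM-214) and endoderm (PKM-214 and PKM-212), and for LDHA in hPSC (LDHA-211). The 3′ intron boundaries of ENO1-203 and PKM-212 are shown because they are what sets these transcripts apart from the spliced form, with intron bases in lower case and the exon after it in capitals (GRCh38, minus strand, from GENCODE 29).
ENO1-203: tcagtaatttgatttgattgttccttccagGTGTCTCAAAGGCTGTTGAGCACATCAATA
PKM-212: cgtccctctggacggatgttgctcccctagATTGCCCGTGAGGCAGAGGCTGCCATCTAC
Both transcripts start inside the intron and hold only the part of it next to the exon. ENO1-203 (chr1:8870481-8870540 shown) holds 1066 intron bases before exon 4 of the 12 exons of the main transcript. PKM-212 (chr15:72202591-72202650) holds 1939 intron bases before exon 9 of 11, and its longer exon covers both the M1 and the M2 exon. ENO1-210, by contrast, ends inside an intron: its last exon starts with exon 10 of the main transcript and runs a little past it. Reads of unspliced RNA over the same intron bases cannot be told apart from reads of these transcripts.

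The retained-intron class of PKM took their highest share of PKM counts on chromatin. In ectoderm PKM-214 held 25.0% ± 5.05 of PKM counts on chromatin (21.9% to 30.8%, n = 3), 8.43% ± 0.656 in nucleoplasm, 2.84% ± 1.56 in nucleus and 3.17% ± 0.0681 in cytoplasm. In endoderm PKM-214 and PKM-212 together held 28.867% ± 2.074 on chromatin (27.0% to 31.1%), 6.697% in nucleoplasm, 7.687% in nucleus and 0.648% in cytoplasm. The chromatin libraries lay above those of every other fraction in both cell types. These shares carry no test.

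ENO1-203 took a smaller share, which was also highest on chromatin. It held 0.203% of ENO1 counts in endoderm cytoplasm and 15.0% ± 2.39 on endoderm chromatin. In ectoderm it went from 0.634% to 7.74% ± 0.425, and in hPSC from 0.381% to 2.92% ± 0.895. ENO1-210 differed little between these fractions: its share was 1.51% in hPSC cytoplasm and 1.82% on chromatin, and 1.85% and 1.75% in ectoderm. LDHA-211 held 0.123% of LDHA counts in hPSC cytoplasm, 0.437% in nucleus and 0.852% on chromatin. The tables of hPSC and mesoderm listed no such transcript of PKM, and that of mesoderm none of ENO1, so the cell types cannot be compared in this where the listed transcripts differ.

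**Figure D4:**
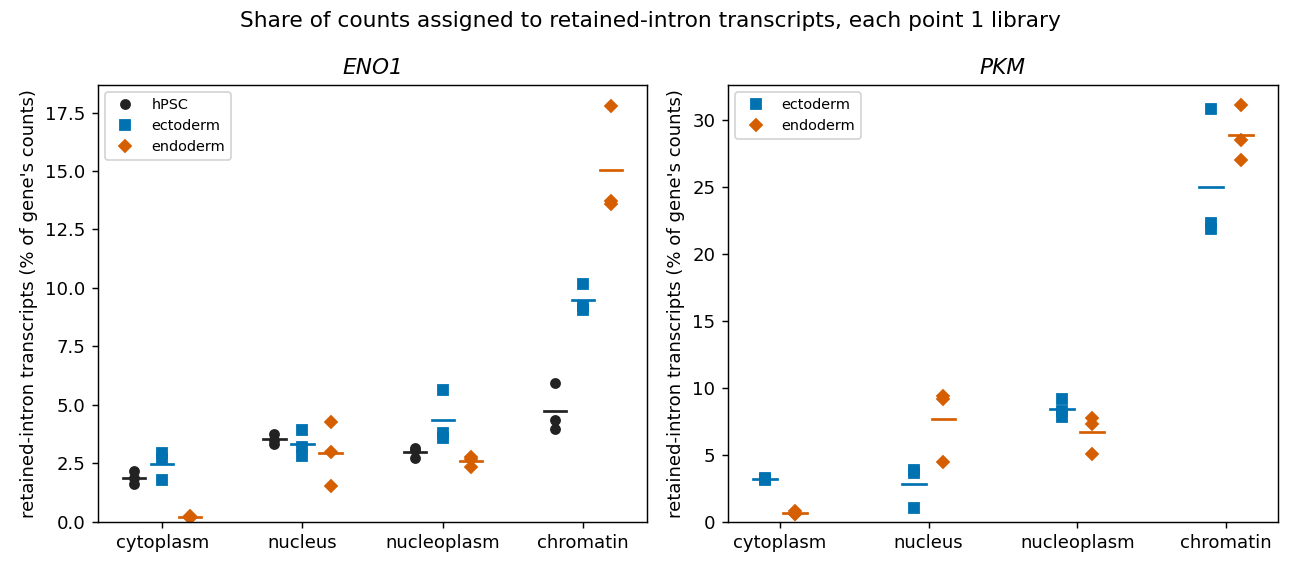
Share of ENO1 and PKM counts assigned to transcripts of the GENCODE class retained intron in each library, in percent, by fraction, with bars at the means. The ENO1 share sums ENO1-203 and ENO1-210 where both are listed, and chromatin stands highest in each panel, reaching 21.9% to 30.8% for PKM in ectoderm and 27.0% to 31.1% in endoderm.

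Tested between cytoplasm and nucleus at the transcript level, the forms of this class were lower in cytoplasm in endoderm (3 of 3), and in hPSC ENO1-203 was. In endoderm PKM-214 averaged 5.514 CPM in cytoplasm and 49.2 CPM in nucleus (5.065 to 5.899 against 31.9 to 61.59, log2 change -3.59 ± 0.18, adjusted p = 4.31e-07), and PKM-212 5.113 and 33.41 CPM (-3.16 ± 0.29, adjusted p = 1.21e-05). ENO1-203 averaged 5.788 and 45.47 CPM in endoderm (-3.42 ± 0.21, adjusted p = 1.15e-06) and 12 and 34.99 CPM in hPSC (-1.57 ± 0.18, adjusted p = 7.64e-05). In hPSC ENO1-210 (48.08 and 43.26 CPM, 0.12 ± 0.17, adjusted p = 0.603) and LDHA-211 (1.346 and 2.049 CPM, -0.61 ± 0.38, adjusted p = 0.229) did not pass. In ectoderm ENO1-203 (9.679 and 12.73 CPM, adjusted p = 0.102) did not pass either. There PKM-214 did not pass (23.97 and 27.45 CPM, adjusted p = 0.276), whereas ENO1-210 did (28.14 and 47.63 CPM, -1.14 ± 0.30, adjusted p = 0.0304). The main transcripts ENO1-201 and PKM-202 rose in hPSC cytoplasm (0.52 ± 0.10 and 0.47 ± 0.09). In endoderm they did not pass (0.29 and 0.14).

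Of the transcripts tested in hPSC, 11 of 19 were higher in cytoplasm, against 19.6% of 28897 transcripts, and 2 were lower, against 20.0%: ENO1-203 and PFKP-201. PFKP-201, a shorter PFKP form, averaged 8.256 CPM in cytoplasm and 22.25 CPM in nucleus (-1.46 ± 0.31, adjusted p = 0.00394), and its share of PFKP counts was 4.96% ± 1.28 in cytoplasm and 24.3% ± 6.24 on chromatin. In endoderm 6 of 18 were higher, against 19.3% of 26389, and 3 lower, against 22.9%. In mesoderm 5 of 13 were higher, against 15.3% of 34688, and 1 lower, PFKP-203, against 16.8%. The calls of PFKP-203 (-0.37, adjusted p = 0.0386) and PGAM1-201 (1.09, adjusted p = 0.0295) were lost whichever library was left out and under the replicate block (adjusted p = 0.0935 and 0.0557), which leaves 4. In ectoderm 6 of 20 were lower, against 6.62% of 41708. Without ectoderm cytoplasm replicate 1 or 3, edgeR called 0 of the 20 (7 and 8 at an unadjusted p under 0.05), and without cytoplasm replicate 2 it called 2. The share of transcripts called that were higher in cytoplasm moved from 49.5% to 29.5% with TPM in hPSC, from 51.5% to 75.0% with library totals and 69.9% with TPM in ectoderm, from 45.8% to 60.6% with library totals in endoderm, and from 47.6% to 32.0% and 8.55% in mesoderm. With TPM the mesoderm direction turned, and 5 of 13 were called lower, PFKP-203 among them.

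LDHA was counted mainly on a pair of transcripts that differ at their first exon and at the end of their last. LDHA-203 begins at chr11:18396278 with a first exon of 333 bases, and LDHA-205 at chr11:18394388 with a first exon of 249 bases. Exons 2 to 7 have the same coordinates in both. LDHA-203 held 67.8% ± 2.72 of LDHA counts in hPSC cytoplasm and 59.0% ± 2.88 in endoderm cytoplasm, but 18.7% ± 7.65 in ectoderm and 19.7% ± 3.76 in mesoderm (SD, n = 3 each). In every fraction the hPSC and endoderm libraries lay above those of ectoderm and mesoderm.

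**Figure D5:**
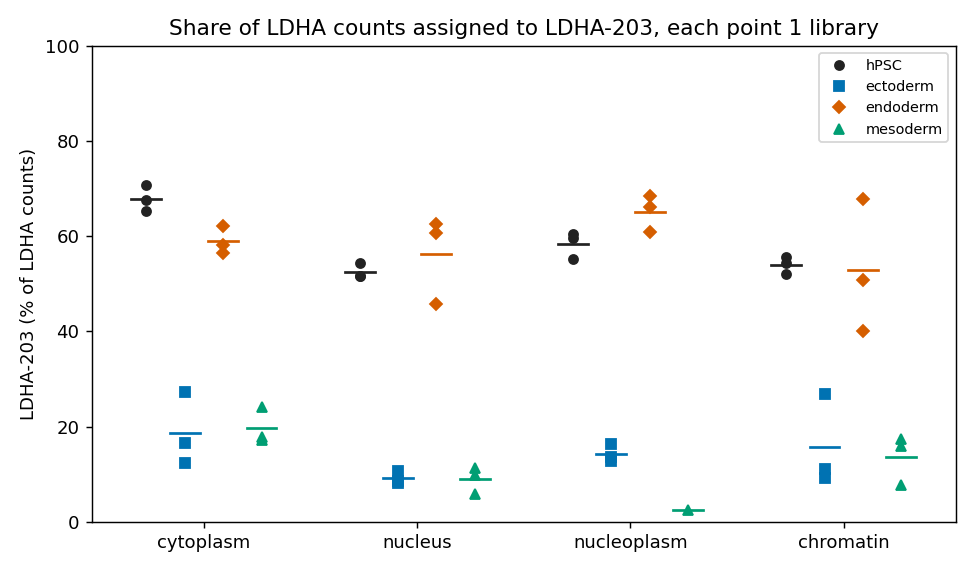
Share of LDHA counts assigned to LDHA-203 in each library, in percent, by fraction and cell type, with bars at the means. The hPSC and endoderm libraries lie at 40.0% to 70.7% and the ectoderm and mesoderm libraries at 2.35% to 27.2%.

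In CPM, LDHA-203 averaged 744.3 in hPSC cytoplasm, 284.3 in endoderm, 68.97 in ectoderm and 27.41 in mesoderm, whereas LDHA-205 averaged 351.7, 196.3, 297.6 and 111.1. Between hPSC and ectoderm cytoplasm, LDHA-203 thus differed more than LDHA-205, which was not tested since each table was counted on its own list of transcripts. The window of the RefSeq start nearest the LDHA-203 start (chr11:18396101-18396350) held ACGTG 0 times and GCGTG 1 time. That window runs into the first exon of LDHA-203. Reads of the shared exons were divided between the transcripts in making the counts, so these shares are less certain than the gene sums. Within a cell type, LDHA-203 was higher in cytoplasm than in nucleus in hPSC (1.58 ± 0.13), endoderm (1.83 ± 0.28) and mesoderm (2.23 ± 0.30, adjusted p = 0.00132), and LDHA-205 in hPSC (0.66 ± 0.13) and endoderm (1.70 ± 0.27). In ectoderm neither passed (adjusted p = 0.332 and 0.182).

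Across the 16 groups, 9 of the enzymes varied together and PFKP stood apart. Pearson's r of log2(CPM + 1) over the group means lay between 0.677 and 0.976 in the 36 pairs without PFKP, with a median of 0.918. For PFKP the median r with the other 9 was 0.245, and the highest, 0.619, was with PKM. Among 4007 other genes at a mean of 50 CPM or more, those most like the mean of the 10 enzymes were SNRPB (r = 0.961), SAE1 (0.952), PRPS1 (0.951), SAP18 (0.947) and SSRP1 (0.947). The groups share their libraries' depth and scaling, so these r values are descriptions only. With a minimum of 10 CPM 3 of these 5 genes stayed among the first 5, and with TPM 2 did.

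Other genes of glucose metabolism, 61 in all, were read in 5 lists. In the list of transporters and regulators, 7 of 11 genes tested were lower in cytoplasm than in nucleus in hPSC (median -2.43), 7 of 11 in ectoderm (-0.57), 8 of 12 in endoderm (-1.47) and 9 of 11 in mesoderm (-1.82), with 2, 2, 2 and 1 higher. SLC2A1, the glucose transporter GLUT1, averaged 127.5 CPM in hPSC cytoplasm and 1063.1 CPM in nucleus (-3.13 ± 0.16), and its changes were -2.36, -3.38 and -2.80 in ectoderm, endoderm and mesoderm. The lactate transporter SLC16A1 averaged 143.5 and 1618.8 CPM in hPSC (-3.57 ± 0.18), and BSG, its chaperone, 467.7 and 3344.2 CPM in endoderm (-3.63 ± 0.31). In hPSC SLC2A1 and SLC16A1 went opposite to the 9 enzymes called.

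In the pentose phosphate branch, which draws on glucose 6-phosphate to make NADPH and ribose, 6 of 7 genes were higher in hPSC cytoplasm (median 0.82), 5 of 7 lower and 2 higher in ectoderm (-0.53), 3 higher in endoderm (0.40) and 5 higher in mesoderm (0.97). Of the genes for pyruvate entry into mitochondria, 8 of 12 were higher in cytoplasm in hPSC and 1 lower, 4 of 12 higher in ectoderm, 8 of 12 higher in endoderm, and 5 of 13 higher and 2 lower in mesoderm. Of the other isoenzymes of the same steps, 5 of 12 were higher and 3 lower in hPSC, 1 and 5 of 11 in ectoderm, 2 and 4 of 11 in endoderm, and 3 and 3 of 10 in mesoderm. The gluconeogenesis list had 3 of 4 lower and 1 higher in hPSC, 3 of 3 lower in ectoderm and endoderm and 3 of 4 lower in mesoderm. Over all genes, 35.0%, 27.2%, 34.4% and 31.8% were called higher and 30.4%, 26.5%, 35.5% and 31.5% lower in hPSC, ectoderm, endoderm and mesoderm.

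Against hPSC cytoplasm, 39.1% of all genes were called higher in ectoderm, 27.5% in endoderm and 35.0% in mesoderm, beside the lower calls given above. The other isoenzymes had 3 of 10 higher and 6 lower in ectoderm, 2 and 5 in endoderm, and 7 of 10 lower in mesoderm. ENO3, the muscle enolase, was among the higher, at 109.4 to 115.8 CPM in ectoderm against 20.63 to 22.93 CPM (2.33 ± 0.11). HK2, a hexokinase, averaged 20.93 against 88.37 CPM there (-2.14 ± 0.15) and ALDOC 17.54 against 96.97 CPM (-2.51 ± 0.17). The transport and control list was mixed, with 4 of 11 higher and 4 lower in ectoderm, 5 and 2 in endoderm, and 3 and 4 in mesoderm. SLC2A3, the glucose transporter GLUT3, rose from 146.6 to 204.5 CPM in hPSC to 1275.0 to 1923.8 CPM in endoderm (2.98 ± 0.16) and 1458.4 to 1701.7 CPM in mesoderm (3.10 ± 0.16), where all 10 enzymes fell. PFKFB2, which sets the level of a phosphofructokinase activator, averaged 0.01944 CPM in mesoderm (0 to 0.05833 CPM, near the floor) against 22.63 CPM in hPSC. Its sign in endoderm (-1.60) turned when only transcripts with an Ensembl identifier were summed (5.45). Each table was counted on its own list of transcripts, and the part of this in the PFKFB2 values was not tested.

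Pyruvate entry genes had 2 of 12 higher and 7 lower in ectoderm, 3 and 3 in endoderm, and 3 and 5 in mesoderm. In the pentose phosphate branch 4 of 7 were lower in ectoderm, 4 lower and 1 higher in endoderm, and 3 lower and 1 higher in mesoderm. In gluconeogenesis 2 of 3 were lower in ectoderm, 1 was lower and 1 higher in endoderm, and 3 of 3 were lower in mesoderm. PCK2, the mitochondrial PEP carboxykinase, was at 10.94 to 12.61 CPM in ectoderm against 206.2 to 212.9 CPM in hPSC (-4.19 ± 0.18, adjusted p = 4.21e-11).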

How the data were processed

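RNA was measured in 46 libraries of 4 cell types and 4 fractions, grouped by sample title. The authors deposited whole-number counts per assembled transcript, treated here as estimated counts because RSEM assigns shared reads by estimation, and TPM, which the authors scaled per length and library. STAR, RSEM and hg38 are named, without roles or versions, in the submitters' processing notes. Filters are not given in the sources used here. Each cell type's table rests on its own assembly. Columns coded "Nei" were read as nucleus by elimination, and 2 value columns matching no sample were not used. The mesoderm nucleoplasm column carries another number than its title and was mapped by group.

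Counts were summed per gene (10701 genes in all 4 tables) and tested with edgeR 4.0.16 (R 4.3.3; TMM, filterByExpr with minimum count 10, two-sided quasi-likelihood F test, Benjamini-Hochberg over all features, called at adjusted p under 0.05). Contrasts of fractions were fitted on every library of the cell type, and contrasts of cell types on every library of the fractions involved. CPM is the count scaled by the library total. Alternatives were DESeq2 1.42.0, limma 3.58.1 (limma-trend on log2(TPM + 1)), library totals, no filter, transcripts with Ensembl IDs only, a replicate block and leaving out each library. The block by number across cell types was chosen after seeing the data. Scripts were tested on simulated data. Promoter windows came from RefSeq (GRCh38.p14), exons from GENCODE 29. The intron boundary of PKM-214 is not reported here. Figures used matplotlib 3.10.9.

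All 10 enzymes enter each comparison, and those not described singly are given there by counts, medians or figures. Transcripts named are the most abundant of a gene, or any that passed and reached a mean of 20 CPM in a group. Other pathway genes named are up to 4 per comparison, by size of change, at 10 CPM or more. PFKP-201, ENO1-210 in hPSC, LDHA-205 and shares on chromatin were added after their values were seen. Members and lists were chosen with earlier results of these data known. Where counts of 0 matter, the limit is taken as 3 counts. Library totals of 4990408 to 21298678 counts limit the precision of transcripts of a few CPM.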

Additional observations from a re-analysis of the deposited data

Results flagged for a closer look

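The contrast of cytoplasm with nucleus differed between cell types for 11 results, each by a test of the difference itself (an interaction term, edgeR quasi-likelihood test, adjusted over all genes). In ectoderm against hPSC the difference in log2 change was -1.85 for TPI1, -1.42 for GAPDH, -1.42 for PGAM1, -1.36 for LDHA, -1.29 for ALDOA, -1.10 for PGK1, -1.08 for PKM, -1.0 for GPI and -0.96 for ENO1, a direction called for 26.1% of all genes. These 9 enzymes were higher in hPSC cytoplasm than in its nucleus libraries, and in ectoderm none of them was called higher. In ectoderm, fits without 1 library called 7 to 9 enzymes, and ENO1 and GPI lost their calls without ectoderm nucleus replicate 2. With TPM fewer enzymes were called lower there. The other 2 results were also lost in some fits. In endoderm against hPSC the difference was -0.80 for TPI1, the triose phosphate isomerase (adjusted p = 0.0488, 18.6% of all genes called lower), and it was lost in 7 of 12 fits without 1 library and under the replicate block. In mesoderm against hPSC it was -0.50 for PFKP, the phosphofructokinase, which was higher in mesoderm nucleus (adjusted p = 0.041, 6.79% of all genes), and it was lost in 11 of 12 such fits and under the block. The nucleus libraries of ectoderm held 117.9 to 494 CPM of the nuclear RNAs and its cytoplasm 1409 to 2537 CPM, and the part of this in the 9 differences was not tested.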

How the results depend on the processing

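Counts of enzymes called in this section are given without the share of all genes called in the same fit. They show only how the calls moved. The 10 enzymes stayed called lower than hPSC under all alternatives run, library left out included, in ectoderm and mesoderm cytoplasm, in ectoderm and endoderm nucleoplasm and in ectoderm and endoderm chromatin. In hPSC cytoplasm against nucleus, 9 were called whichever library was left out. With library totals in place of TMM, 2 enzymes were called in ectoderm cytoplasm against nucleus and 10 in endoderm (PFKP 0.33, PKM 0.57, PFKP-203 0.33), 1 in hPSC chromatin against nucleoplasm, upward, and 5 in endoderm. The same scaling called 8 in endoderm nucleus against hPSC (ENO1 -0.43) and, for the difference of contrasts, 2 in endoderm, upward (GPI 0.58), and 4 in mesoderm. It called 1 transcript in ectoderm and 15 in endoderm.

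With TPM, 1 enzyme was called in ectoderm cytoplasm against nucleus, 7 in endoderm and 5 in mesoderm, all lower: PFKP (-1.74), PKM (-1.16), ENO1 (-1.14), PGK1 (-1.03) and GPI (-0.71). ALDOA (-0.22) and PGAM1 (-0.29) turned sign there without a call. On chromatin against nucleoplasm TPM called 4 higher in hPSC, PFKP (0.89), TPI1 (0.43), ALDOA (0.42) and PKM (0.40), and 2 higher in ectoderm, PFKP (1.07) and PKM (0.46), and it called 3 in endoderm. Sign turned without a call for PGK1 (0.27) and LDHA (0.03) in hPSC and for TPI1 (0.23), PGAM1 (0.09), PGK1 (0.05) and GPI (0.02) in ectoderm. Against hPSC TPM called 3 in endoderm cytoplasm (PKM 0.01, PDK3 0.01), 4 in ectoderm nucleus and 8 in endoderm nucleus (ENO1 -0.43). In mesoderm nucleus PFKP (0.69) and PGK1 (0.53) were called higher and PKM was at 0.27 without a call, and MPC1 was at -0.23 in mesoderm chromatin. For the difference of contrasts TPM called 5 in ectoderm, 2 in endoderm, upward (GPI 0.65), and 8 in mesoderm (TPI1 -0.60). Of the transcripts it called 8 in hPSC, 0 in ectoderm (limma, 3 at an unadjusted p under 0.05) and 5 in mesoderm, all lower: PFKP-203 (-1.74), PKM-202 (-1.16), ENO1-201 (-1.14), PGK1-201 (-1.03) and GPI-201 (-0.71). ALDOA-221 (-0.20) and PGAM1-201 (-0.29) turned sign without a call.

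DESeq2 called 7 enzymes in endoderm cytoplasm against nucleus, 4 in hPSC chromatin against nucleoplasm, 2 in the endoderm difference of contrasts and 10 ectoderm transcripts. Without the filter 1 was called in hPSC chromatin against nucleoplasm. Sums over transcripts with an Ensembl identifier called 1 there, 5 in ectoderm chromatin and 0 in the endoderm difference of contrasts (edgeR, 2 at an unadjusted p under 0.05, and DESeq2 called 2 on all transcripts). Under those sums ENO3 was at -3.41 in endoderm chromatin against nucleoplasm, and PFKFB2 in endoderm against hPSC was at 5.45 in cytoplasm, 4.39 in nucleus and 4.18 in nucleoplasm. The likeness list kept 3 of 5 genes with a minimum of 10 CPM and 2 with TPM. The cause was not tested for any of these.

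Same-numbered libraries did not deviate together in every pair (r from -0.56 to 0.36), so the numbers were not read as pairs. With the replicate block 1 enzyme was called in hPSC chromatin against nucleoplasm, 3 transcripts in ectoderm, and 0 in the endoderm and mesoderm differences of contrasts (edgeR, 1 each at an unadjusted p under 0.05, DESeq2 without the block 2 and 1). Other counts of enzymes stayed within 1.5 times under the block.

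Leaving out each library in turn gave 4 to 10 enzymes in ectoderm cytoplasm against nucleus, 3 to 8 in endoderm, 4 to 5 in mesoderm, 1 to 1 in hPSC chromatin against nucleoplasm, 6 to 9 in ectoderm and 7 to 8 in endoderm. Against hPSC it gave 8 to 10 in endoderm cytoplasm, 1 to 2 in ectoderm nucleus, 2 to 7 in endoderm nucleus, 8 to 8 in mesoderm nucleus and 9 to 10 in mesoderm chromatin. The differences of contrasts gave 7 to 9 in ectoderm, 0 to 3 in endoderm and 0 to 1 in mesoderm (edgeR, 0 to 2 and 1 at an unadjusted p under 0.05 where none was called). Transcripts gave 13 to 14 in hPSC, 0 to 9 in ectoderm, 7 to 13 in endoderm and 4 to 4 in mesoderm.

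Over all genes, 8586 were called in ectoderm cytoplasm against nucleus and 5346 with TPM. In hPSC chromatin against nucleoplasm 4312 were called, 7783 with TPM, 2631 with Ensembl transcripts only and 2613 without hPSC nucleoplasm replicate 1. In ectoderm chromatin 7042 were called, and 3844 with Ensembl transcripts only. The endoderm difference of contrasts gave 4122 and, with Ensembl transcripts only, 2431, and that of mesoderm 2703 and, with TPM, 4542. Of ectoderm transcripts 5694 were called, 10812 with DESeq2, 3545 with TPM, and 3331 and 3687 without cytoplasm replicate 1 and 3. Of mesoderm transcripts 11114 were called, and 7194 without nucleus replicate 1. Depth limits the transcripts of a few CPM.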
